A study of Sus scrofa with 36 samples.

Results

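The granins, neuropeptides and prohormone convertases of the chromaffin granule were followed in pig adrenal glands through 10 genes: the granins CHGA, CHGB, SCG2 and SCG5, the peptide precursors PENK, NPY, GAL and VIP, and the convertases PCSK1 and PCSK2. Their probes were found on the array by gene name, and otherwise by the RefSeq transcript written in the probe annotation. This gave 36 of the 60305 probes on the array, for 9 of the 10 genes. No probe was found for VIP by this rule. Of these probes, 34 probes of 8 genes were among the 45348 probes of the deposited expression table, while the single probe of PCSK2 and 1 of 4 PCSK1 probes were read from the scanner files only.

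Gene expression was compared by breed and by heat exposure in growing castrated male pigs (Sus scrofa). Each of the 6 groups held 6 animals, and the Cy3-labelled RNA of each animal was hybridised to its own array. The breeds were Creole (CR), Large White (LW) and their F1 cross (F1), with 12 pigs each. In each breed, pigs under thermoneutral conditions (TN) were slaughtered at 24 °C and heat-stressed pigs (HS) were slaughtered at the end of an exposure of up to 5 days. The sample labels give 30 °C for this exposure, whereas the growth protocol and the study's methods give 32 °C. TN and HS pigs were slaughtered on different days, so temperature and slaughter day cannot be told apart. The labels give no age, pen or parents. By the study's methods, the 12 pigs of a breed were arranged in blocks of littermates and shared pens with pigs of their own breed. The tests below treat pigs as independent, so their standard errors and p-values, between breeds above all, may be too small. RNA came from an aliquot of powdered adrenal gland, which mixes the cortex and the medulla, so that a group with fewer chromaffin cells and a group with less RNA per chromaffin cell cannot be told apart in any result on these genes.

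Chromaffin cells of the adrenal medulla store adrenaline and noradrenaline in dense-core granules together with soluble proteins and peptides, and release all of them together when the splanchnic nerve stimulates the gland. Granins (chromogranin A, CHGA; chromogranin B, CHGB; secretogranin II, SCG2) are acidic proteins that make up much of the granule matrix and are themselves precursors of peptides. PCSK1 and PCSK2 cut granins and peptide precursors at pairs of basic residues, and SCG5 (7B2) is the chaperone that PCSK2 needs. PENK is the precursor of the enkephalins, NPY and GAL encode neuropeptide Y and galanin, and VIP encodes vasoactive intestinal peptide.

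The probes are 60-base oligonucleotides, and what the array measured of a gene is the RNA that binds them. For 6 probes, which are shown because the breed differences below were read from these genes or, for PCSK2, because its low signal was, at least 1 forward reading frame held no stop codon, and they are printed in full, 5′ to 3′, with the CHGA pair being the less bright probes of that gene.
CHGA, probe O7353: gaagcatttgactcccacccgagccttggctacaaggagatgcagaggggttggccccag
CHGA, probe A_72_P048586: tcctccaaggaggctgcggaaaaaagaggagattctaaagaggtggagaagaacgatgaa
CHGB, probe A_72_P600933: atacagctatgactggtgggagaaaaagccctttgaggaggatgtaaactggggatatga
SCG5, probe A_72_P574509: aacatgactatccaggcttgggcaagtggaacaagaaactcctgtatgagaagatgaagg
GAL, probe A_72_P441424: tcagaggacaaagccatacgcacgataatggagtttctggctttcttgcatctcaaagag
PCSK2, probe A_72_P441519: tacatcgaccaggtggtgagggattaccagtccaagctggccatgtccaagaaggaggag

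Other member probes held the letters AATAAA, the usual signal for cleavage and polyadenylation near the end of a messenger RNA. A stretch of 30 bases around it is printed for 1 probe of each of the 4 genes that had one, with AATAAA in capitals.
NPY, probe O138: tacgtgcatttaAATAAAgtaaccatgcat
PENK, probe A_72_P014266: gtacatagatacAATAAAcccattacccca
PCSK1, probe A_72_P003306: gaaagtttcatcAATAAAatatttttgaaa
CHGB, probe A_72_P165646: tcagtgtgacatAATAAAggattctctcca
The letters were present on the printed strand in 8 of 36 member probes and in 6185 of the 60305 probes (10.3%), and on the opposite strand in 4 of 36 member probes and 4.32% of all probes. A match describes the letters of the probe only. The files do not settle which strand each probe reads, and for the dimmest CHGB and SCG2 probes (mean levels 8.38 and 6.95) this is in doubt, although both are counted with their genes below. The 17 CHGB probes, of which those sharing at least 20 bases were joined, formed 6 sets. The 4 SCG2 probes and the 4 PCSK1 probes formed 3 sets each, so probes of a gene are not independent of each other. No other probe of the array shared 20 bases with a member probe on either strand.

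By RefSeq on Sscrofa11.1, CHGA lies at chr7:114345542-114357799, CHGB at chr17:14747282-14761995, SCG2 at chr15:125420773-125426303 and SCG5 at chr1:136525920-136590021. PENK lies at chr4:75525497-75530403, NPY at chr18:47985796-47993726, GAL at chr2:4351113-4357167 and VIP at chr1:13611786-13620250. PCSK1 lies at chr2:103004794-103050707 and PCSK2 at chr17:25681424-25920690. The genes are thus spread over 7 chromosomes, and only PCSK1 with GAL, SCG5 with VIP and CHGB with PCSK2 share one.

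On every array between 42436 and 48060 probes were well above background, and the median correlation of an array with the others was 0.986 to 0.991. Of the 34 member probes of the table, 33 were well above background on all 36 arrays, the exception being 1 PCSK1 probe, and none was saturated. The values given below are log2 intensities of the deposited table for the brightest probe of each gene unless another probe is named, and a difference is one of log2 values of the same probe, since levels of different probes cannot be compared. Tests are those of limma with Benjamini-Hochberg adjustment over all 45348 probes and a threshold of 0.05. Chromaffin markers were present in all 6 groups: DBH, DDC and PNMT were well above background on all 36 arrays, and TH and PHOX2A had no named probe. Cortex cells (STAR, NR5A1), Schwann cells, adipocytes, red blood cells, endothelium and leukocytes were also detected by their markers.

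Most members differed between the breeds. In LW pigs compared to CR pigs, granin, enkephalin precursor and PCSK1 signals were higher: SCG2 was 2.04-fold higher, PCSK1 1.56-fold, PENK 1.48-fold, CHGB 1.45-fold, SCG5 1.29-fold and CHGA 1.12-fold. GAL and NPY did not pass the test. Over all probes, 30 of 34 member probes were called and all 30 were higher in LW pigs, while 11.5% of the 45348 probes were called between these breeds, 5.98% higher and 5.5% lower in LW pigs. The F test over all 3 breeds called 30 of 34 member probes as well, against 10.6% of all probes. The median difference of the member probes between LW and CR pigs was 0.56, with 31 of 34 above 0, while 49.9% of all probes had a difference above 0 and 2.12% one above 0.5.

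**Figure D1:**
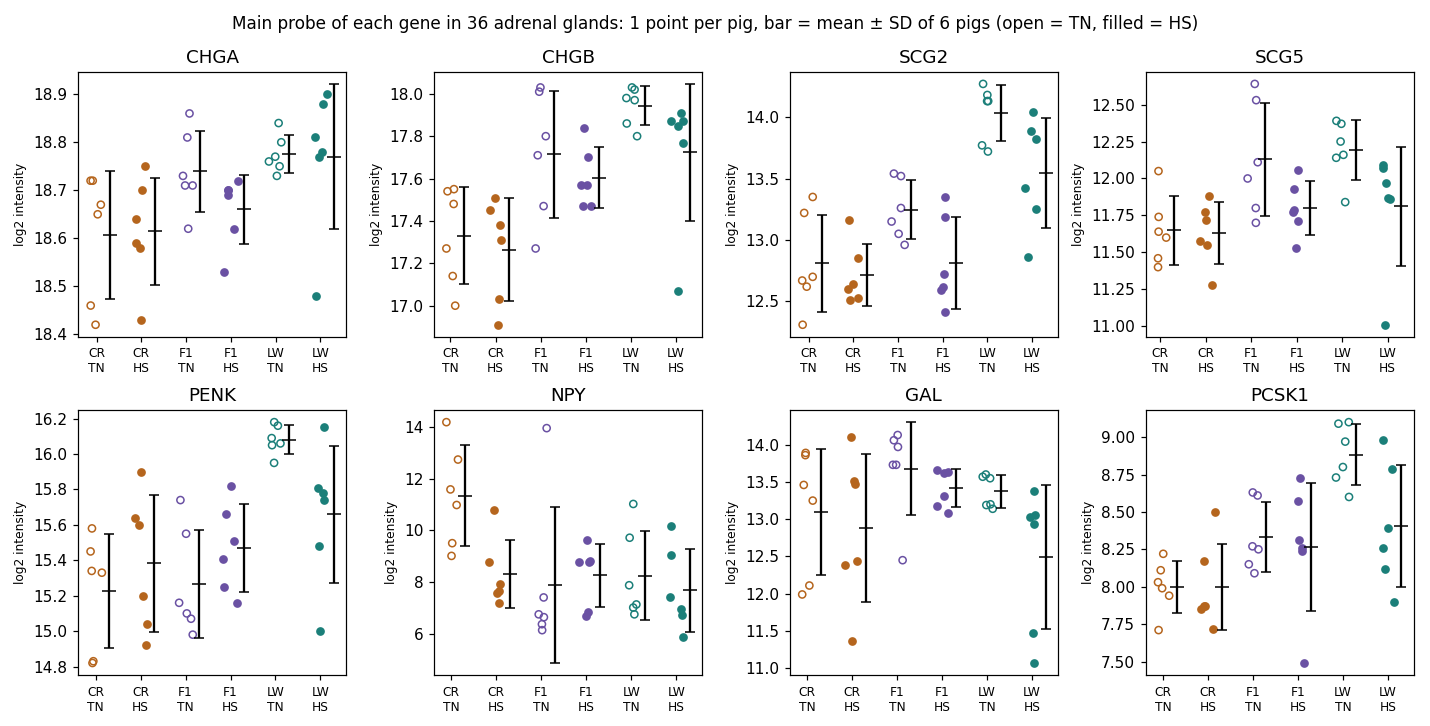
Log2 intensity of the brightest probe of each of 8 genes in each of 36 pigs, by breed and temperature group, with 1 point per pig (open for TN, filled for HS) and bars for the mean ± SD of 6 pigs, each panel with its own vertical range. For SCG2 all 12 LW pigs lie above the CR mean of 12.76, and for NPY the pigs are spread from 5.88 to 14.17.

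SCG2 had the largest breed difference among the 6 genes called. Its level was 12.31 at the lowest, 12.68 at the median and 13.35 at the highest in the 6 CR TN pigs and 13.72, 14.13 and 14.27 in the 6 LW TN pigs. In the HS pigs the values were 12.51, 12.62 and 13.16 for CR and 12.86, 13.62 and 14.04 for LW. The TN groups did not overlap, and in HS 5 of 6 LW pigs were above every CR pig. The difference between breeds was 1.03 ± 0.13 (SE; 95% confidence interval 0.76 to 1.29; limma, adjusted p = 1.9e-06). The other SCG2 probes gave 1.04, 1.01 and 0.74, and all 12 LW pigs were above the CR mean. The probe with 1.04 shares 57 bases with the brightest probe.

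CHGB, the second granin of the granule matrix, ran from 17.00 to 17.55 (median 17.38) in CR TN pigs and from 17.80 to 18.03 (median 17.98) in LW TN pigs, without overlap. In HS pigs it ran from 16.91 to 17.51 (median 17.35) in CR and from 17.07 to 17.91 (median 17.86) in LW, with overlap through 1 low LW pig. The difference was 0.53 ± 0.09 (SE; 0.35 to 0.72; limma, adjusted p = 0.000142). All 17 CHGB probes were called, with differences between 0.25 and 0.69, the smallest at a probe with a mean level of only 8.38.

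CHGA had the brightest probe of all members, and its 4 probes differed in how far the breeds were apart. At the brightest probe the level ran from 18.42 to 18.72 (median 18.66) in CR TN pigs and from 18.73 to 18.84 (median 18.77) in LW TN pigs, and from 18.43 to 18.75 (median 18.62) and 18.48 to 18.90 (median 18.80) in the respective HS pigs. Only the TN groups were apart, and by little. The difference was 0.16 ± 0.05 (SE; 0.07 to 0.25; limma, adjusted p = 0.015), and without the arrays of slide 3 or of slide 5 the adjusted p rose to as much as 0.089. The highest log2 value of the whole table was 19.38. The other 3 CHGA probes, with mean levels of 16.42, 12.58 and 11.95, gave larger differences of 0.27, 0.64 and 0.68, all called by limma with adjusted p of 8.75e-05, 0.00109 and 6.73e-05. Whether brightness decides the size of the difference was not tested.

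**Figure D2:**
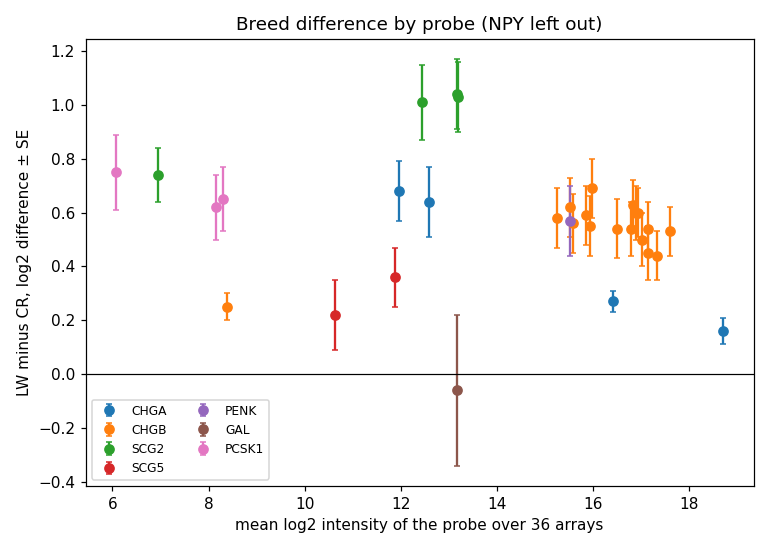
Difference between LW and CR pigs in log2 intensity (vertical axis) against the mean log2 level over 36 arrays (horizontal axis) for each member probe of the table except those of NPY, with bars for the standard error. The 4 CHGA probes go from 0.16 at a mean level of 18.7 to 0.68 at 11.95, while 3 of the 4 SCG2 probes lie near 1.

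SCG5, the chaperone of PCSK2, ran from 11.40 to 12.05 (median 11.62) in CR TN and from 11.84 to 12.39 (median 12.21) in LW TN, and from 11.28 to 11.88 (median 11.65) and 11.01 to 12.09 (median 11.92) in the HS pigs. The groups overlapped at both temperatures, although 11 of 12 LW pigs were above the CR mean. The difference was 0.36 ± 0.11 (SE; 0.13 to 0.59; limma, adjusted p = 0.0319). This call was the least stable of the 6: it was lost in 12 of 41 fits that left out a pig or a slide, with adjusted p up to 0.163, and the second SCG5 probe gave 0.22 (limma, adjusted p = 0.286).

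Among the peptide precursors, PENK was called between LW and CR pigs. Its level ran from 14.82 to 15.58 (median 15.34) in CR TN and from 15.95 to 16.18 (median 16.08) in LW TN, and from 14.92 to 15.90 (median 15.40) and 15.00 to 16.15 (median 15.76) in HS. All 6 LW TN pigs were above all CR pigs of both temperatures, whereas the HS groups overlapped. The difference was 0.57 ± 0.13 (SE; 0.30 to 0.84; limma, adjusted p = 0.00324). For GAL the difference was -0.06 ± 0.28 (SE; -0.63 to 0.51; limma, adjusted p = 0.936), an interval that holds differences of either direction. NPY gave -1.85 ± 0.77 (SE; -3.41 to -0.28; limma, adjusted p = 0.121), with the level higher in CR pigs but not past the threshold.

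PCSK1, the convertase that acts early in the granule, ran from 7.71 to 8.22 (median 8.01) in CR TN and from 8.60 to 9.10 (median 8.88) in LW TN, and from 7.72 to 8.50 (median 7.87) and 7.90 to 8.98 (median 8.32) in HS. As for PENK, the TN groups were apart and the HS groups overlapped. The difference was 0.65 ± 0.12 (SE; 0.39 to 0.90; limma, adjusted p = 0.000514), and the other PCSK1 probes of the table gave 0.62 and 0.75. The probe with 0.62 shares all 60 bases with the brightest probe and is no second reading, and the probe with 0.75 is dim (mean level 6.08). PCSK2 could not be compared: its probe was well above background on only 13 of 36 arrays (2 of CR TN, 1 of CR HS, 5 of F1 TN, 1 of F1 HS, 2 of LW TN and 2 of LW HS), with log2 scanner values between 5.03 and 7.16 and a median of 5.43.

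The arrays came from 5 slides, of which 4 held 8 arrays each with all 6 groups. Within each of these 4 slides LW pigs were higher than CR pigs, on average, for CHGA (0.08 to 0.25), CHGB (0.45 to 0.56), SCG2 (0.69 to 1.26), SCG5 (0.23 to 0.48), PENK (0.49 to 0.74) and PCSK1 (0.34 to 0.75). The NPY difference was below 0 in all 4 slides (-2.36 to -0.75), and that of GAL lay on both sides of 0 (-0.42 to 0.27).

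The breed difference was then estimated at each temperature. In TN pigs 28 of 34 member probes were called, all higher in LW, against 3.55% of all probes called and 2.06% called higher. In HS pigs 8 of 34 were called, all higher in LW, against 2.86% called and 1.37% called higher. In TN pigs SCG2 was 1.22 higher in LW, PCSK1 0.88, PENK 0.86, CHGB 0.61 and SCG5 0.55 (limma, adjusted p of 0.000164, 0.00214, 0.00284, 0.00615 and 0.0451). CHGA gave 0.17 at its brightest probe (adjusted p = 0.155), while its other 3 probes were called. In HS pigs the 8 calls were the 4 SCG2 probes and 4 of 17 CHGB probes. SCG2 was 0.83 higher in LW HS pigs (limma, adjusted p = 0.00991), and CHGB gave 0.46 (0.0538), PCSK1 0.41, PENK 0.28, SCG5 0.18 and CHGA 0.16. The difference between temperatures was tested itself, by limma's F test of the breed by temperature interaction, which called 0 of 34 member probes (0% of all probes), with 2 at an unadjusted p under 0.05 against 4.22% of all probes. LW TN pigs lay above every CR TN pig for CHGA, CHGB, SCG2, PENK and PCSK1, that is for 5 of 8 brightest probes, against 1.5% of all probes. In HS no member had LW pigs all above CR pigs, against 0.671% of all probes.

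The F1 pigs had median levels between those of the parent breeds for the granins at both temperatures. These medians in TN and HS were 18.72 and 18.70 for CHGA, 17.76 and 17.57 for CHGB, 13.21 and 12.67 for SCG2 and 12.05 and 11.78 for SCG5. PCSK1 medians in F1 pigs were 8.26 and 8.28 and also lay between the parents, whereas the PENK median under TN, 15.13, was below that of CR pigs, and the GAL medians, 13.85 and 13.46, were above those of both parents. Compared to CR pigs, 12 of 34 member probes were higher in F1 pigs (3.99% of all probes were called, 2.25% higher), and these were 11 CHGB probes and 1 CHGA probe. CHGB was 0.36 higher in F1 than in CR pigs (limma, adjusted p = 0.0198). Compared to F1 pigs, 6 member probes were higher in LW pigs (1.42% of all probes were called, 0.732% higher), and they were the 4 SCG2 probes, 1 CHGA probe and PENK. SCG2 was 0.76 higher (limma, adjusted p = 0.00201) and PENK 0.51 higher (0.0395) in LW than in F1 pigs. No member probe differed between F1 pigs and the mean of both parents, 0 of 34 by limma, against 0.415% of all probes. At an unadjusted p under 0.05 there were 2 member probes, GAL with 0.59 ± 0.24 (SE; adjusted p = 0.334) and an SCG2 probe, against 11.2% of all probes.

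Heat exposure gave no call among the members. In HS pigs compared to TN pigs, over all breeds, limma called 0 of 34 member probes, against 0.911% of all probes, and 12 member probes had an unadjusted p under 0.05, against 13.5% of all probes. All 34 member probes had a difference below 0, with a median of -0.16, whereas 50% of all probes did. Probes of a gene share RNA, and the genes varied together across pigs, so that this count is not one of independent values.

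**Figure D3:**
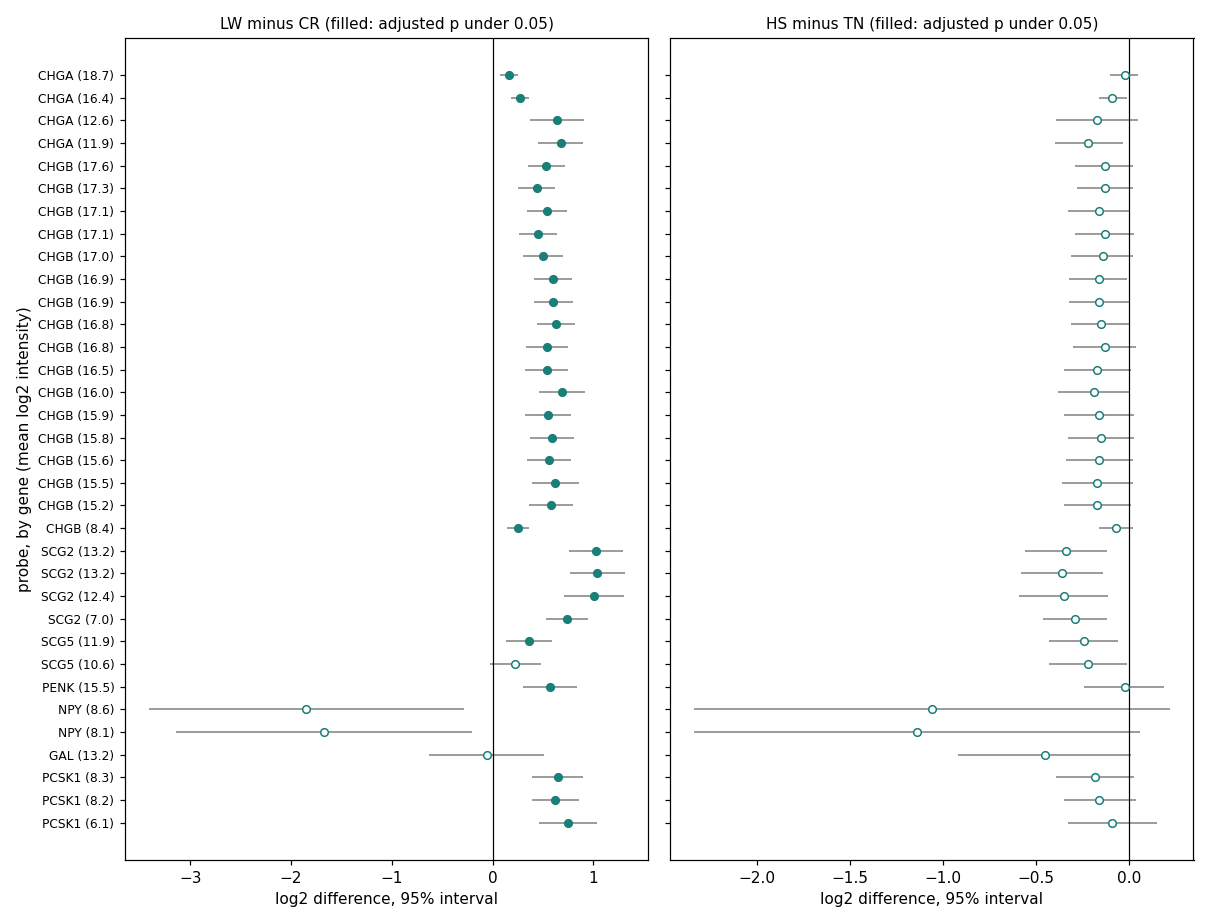
Differences in log2 intensity for each of 34 member probes, ordered by gene, with bars for the 95% confidence interval: LW minus CR (left) and HS minus TN (right), filled where called, with the mean level of the probe in brackets. All 34 differences lie below 0 for HS minus TN with none called, and 31 of 34 lie above 0 for LW minus CR with 30 called.

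Among the granins, SCG2 had the lowest adjusted p. It had a mean of 13.36 ± 0.59 (SD, n = 18) in TN and 13.03 ± 0.51 (SD, n = 18) in HS pigs, with medians of 13.31 and 12.85 and overlapping ranges of 12.31 to 14.27 and 12.41 to 14.04. The difference was -0.34 ± 0.11 (SE; limma, adjusted p = 0.118), and the lowest adjusted p of all members was 0.0837, at the dimmest SCG2 probe, whose strand is in doubt (difference -0.29), followed by 0.0884 at another SCG2 probe. SCG5 gave -0.24 ± 0.09 (adjusted p = 0.201), CHGB -0.13 (0.458) and CHGA -0.02 (0.839) at its brightest probe. The other CHGA probes, from bright to dim, gave -0.09, -0.17 and -0.22, with adjusted p of 0.265, 0.539 and 0.258 by limma. Within the 4 slides with all groups, SCG5 was lower in HS pigs in each (-0.40 to -0.02), while SCG2 ranged from -0.58 to 0.17. CHGB (-0.14 to 0.07) and CHGA (-0.07 to 0.07) also lay on both sides of 0.

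Among the peptides and the convertase, the differences between HS and TN pigs were -1.06 ± 0.63 (SE) for NPY, -0.45 ± 0.23 for GAL, -0.18 ± 0.10 for PCSK1 and -0.02 for PENK, with adjusted p of 0.484, 0.386, 0.454 and 0.959 by limma. For GAL the levels in the 18 TN pigs ran from 11.99 to 14.13 (median 13.56) and in the 18 HS pigs from 11.07 to 14.11 (median 13.13), a wide overlap. GAL was lower in HS in each of the 4 slides, by values between -0.81 and -0.03. In the same slides NPY (-3.56 to 0.35), PCSK1 (-0.36 to 0.16) and PENK (-0.14 to 0.19) lay on both sides of 0.

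Within a breed, 6 TN against 6 HS pigs gave 0 calls among the member probes in each of the 3 breeds. Over all probes 0% were called in CR, 0.011% in LW and 0% in F1 pigs, and the member probes at an unadjusted p under 0.05 numbered 2, 13 and 6 of 34, against 4.79%, 6.29% and 12.3% of all probes. In LW pigs the differences were -0.89 for GAL, -0.48 for SCG2 and for PCSK1, -0.42 for PENK, -0.38 for SCG5 and -0.22 for CHGB. CHGA gave -0.01 at its brightest probe and -0.15, -0.37 and -0.49 at the others, with adjusted p of 0.573 or more by limma. LW HS pig 5 was the lowest of its group in each of these genes except GAL, and also in DBH and DDC. Without this pig the differences were -0.68 for GAL, -0.35 for SCG2, -0.37 for PCSK1, -0.29 for PENK, -0.22 for SCG5 and -0.09 for CHGB. In F1 pigs SCG2 gave -0.43 (limma, adjusted p = 0.33), SCG5 -0.33 and PENK 0.20. In CR pigs the differences, with NPY given below, were -0.21 ± 0.40 (SE) for GAL, 0.16 ± 0.17 for PENK, -0.10 ± 0.19 for SCG2 and -0.07 ± 0.13 for CHGB, with adjusted p of 1.0 each by limma. CR TN pig 2 was the highest of its group in each of these 4 genes. Without it the differences were -0.05 for GAL, 0.23 for PENK, 0.01 for SCG2 and -0.02 for CHGB.

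The order of the 6 group means was examined for each gene with an exact permutation test of each pair of neighbours, 40 pairs in all. None of the 40 pairs passed after adjustment (lowest adjusted p = 0.216, exact test, two-sided), and 7 had an unadjusted p under 0.05. Neighbours in the order are the closest groups by construction, and the smallest p possible, 0.00216, would not pass for 1 pair alone after adjustment over 40, so a pair that missed the threshold is not shown to be alike. The lowest unadjusted exact p, 0.0108, belonged to NPY in CR TN against CR HS pigs and to PENK in LW TN against LW HS pigs.

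NPY stood apart from the other members by its spread. It ran from 5.88 to 14.17 across the 36 pigs, a range of 8.29 on the log2 scale or 313-fold, and its SD within groups was 1.89, a value exceeded by 0.0463% of all probes. The SD within groups was 0.72 for GAL (exceeded by 1.44% of probes), 0.33 for SCG2, 0.31 for PENK and PCSK1, 0.28 for SCG5, 0.24 for CHGB and 0.11 for CHGA (exceeded by 92.4%), against a median of 0.18 over all probes.

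High NPY was seen in single pigs of several groups. In CR TN pigs the 6 values were 9.02, 9.51, 10.98, 11.58, 12.73 and 14.17, and in CR HS pigs 7.20, 7.61, 7.66, 7.93, 8.80 and 10.77. In F1 TN pigs 5 values lay between 6.16 and 7.42 and the sixth was 13.94, and F1 HS pigs ran from 6.70 to 9.63 (median 8.79). LW pigs ran from 6.77 to 11.02 (median 7.52) in TN and from 5.88 to 10.17 (median 7.19) in HS. The CR TN group had the highest mean, 11.33 ± 1.94 (SD, n = 6), against 8.33 ± 1.31 in CR HS pigs, and 5 of 6 CR HS pigs were below every CR TN pig. The difference in CR pigs was -3.00 ± 1.04 (SE; limma, adjusted p = 0.905) and -2.92 at the second NPY probe, and it was -2.43 without CR TN pig 2. Between LW and CR pigs it was -3.07 under TN (limma, adjusted p = 0.1) and -0.63 under HS (0.82). In LW pigs the difference between HS and TN was -0.56 (limma, adjusted p = 0.949). In F1 pigs the difference between HS and TN was 0.38, and 1.59 without F1 TN pig 1.

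The 2 NPY probes agreed across pigs with r = 0.99. The genes whose pattern across the 36 pigs was most like that of NPY, after the mean of each group was removed and among 10202 named genes, were NMB (neuromedin B, a peptide) with r = 0.89, PRPH (peripherin, an intermediate filament of peripheral neurons) with r = 0.89 and SNCG (gamma-synuclein) with r = 0.82. These correlations are descriptions over pigs, chosen as the highest, and carry no test. In CR TN pig 2 and F1 TN pig 1, which had the highest NPY levels, PRPH was 11.71 and 11.85 and NMB 11.98 and 13.13, while in the pig with the lowest NPY of all, LW HS pig 4, they were 7.50 and 9.28. Over all pigs PRPH ran from 7.11 to 11.85 and NMB from 9.07 to 13.13. The neurotrophin receptor gene NGFR had r = 0.82 with NPY. The Schwann cell gene S100B had 0.44, SOX10 -0.33, and the chromaffin enzymes DBH and PNMT had 0.11 and -0.01. PRPH and NMB had r between -0.21 and 0.18 with the other members.

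**Figure D4:**
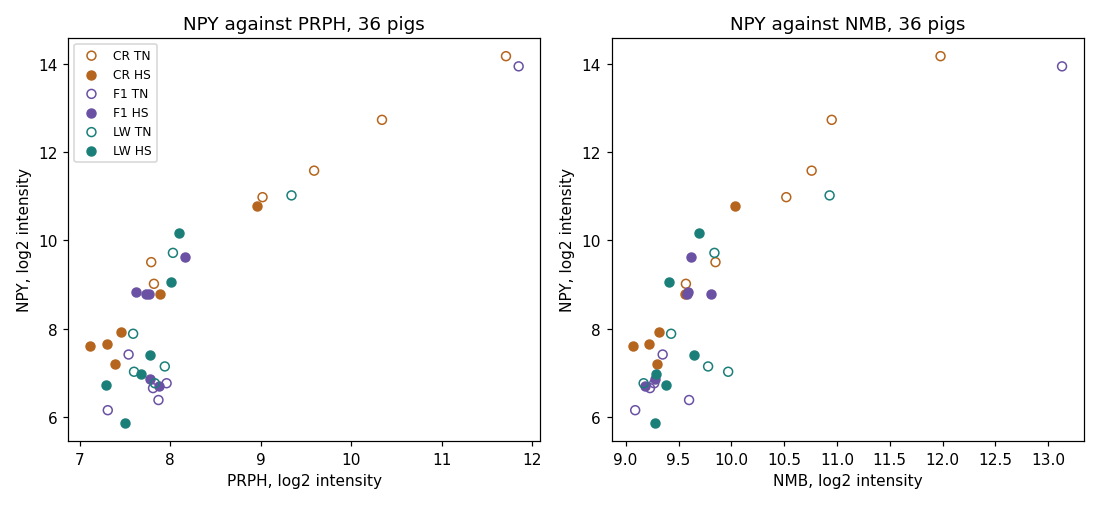
NPY against PRPH (left) and against NMB (right), log2 intensity, 1 point per pig for 36 pigs with colour for the breed and filled points for HS. The 5 pigs with NPY above 11 (3 CR TN, 1 F1 TN and 1 LW TN) also have the highest PRPH and NMB, up to 11.85 and 13.13.

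The other members varied with CHGA across the 36 pigs. Pearson's r with CHGA was 0.83 for CHGB (Spearman's rho 0.82), 0.70 for PCSK1 (0.77), 0.68 for SCG5 (0.72), 0.57 for SCG2 (0.71), 0.50 for PENK (0.59), 0.41 for GAL (0.20) and -0.37 for NPY (-0.45). All 7 passed a permutation test of r (two-sided, 100000 resamples) after adjustment over the 7 relations, with adjusted p of 0.0266 for NPY and 0.0142 for GAL. Without the 2 pigs farthest from the median CHGA level (CR TN pig 6 and CR HS pig 1), r was 0.22 for GAL and -0.29 for NPY (adjusted permutation p of 0.219 and 0.11). The pooled relation of GAL with CHGA by r thus did not hold without those pigs, and rho for GAL had not passed with all pigs (adjusted permutation p = 0.236), although GAL passed with group means removed, as given next. For NPY rho was -0.41 without these pigs and still passed (adjusted permutation p = 0.0207). The brightest CHGA probe had r of 0.64 to 0.73 with the other 3 CHGA probes. With the mean over all probes of each gene, NPY did not pass by r (-0.21, adjusted permutation p = 0.211) or by rho (-0.27, 0.105). The other relations passed by r, with 0.79 for SCG2 and 0.49 for GAL. With the mean of each group removed, r was 0.77 for CHGB, 0.60 for SCG5 and for PCSK1, 0.57 for GAL (adjusted permutation p = 0.000595), 0.38 for PENK (adjusted permutation p = 0.0311), 0.28 for SCG2 (0.109) and -0.22 for NPY (0.198). Within slides of 8 arrays r with CHGA ranged from 0.60 to 0.90 for CHGB, 0.48 to 0.82 for SCG5, 0.46 to 0.88 for PCSK1, 0.43 to 0.78 for PENK, 0.28 to 0.84 for SCG2, -0.53 to 0.54 for GAL and -0.79 to 0.11 for NPY.

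Among all pairs of members, with group means removed, CHGB and SCG5 had r = 0.81 and CHGB and GAL 0.70. SCG2 and PENK had 0.63, as had PENK and PCSK1. GAL, on the other hand, had r = 0.06 with SCG2 and -0.07 with PENK. NPY had values between -0.31 and 0.13 with every other member.

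**Figure D5:**
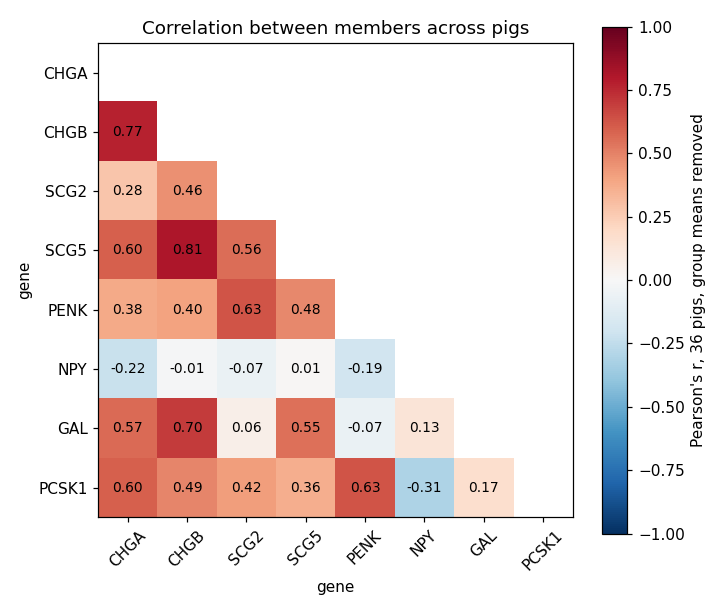
Pearson's r between the brightest probes of each pair of 8 genes over 36 pigs, after the mean of each of the 6 groups was removed; colour and number give r. CHGB with SCG5 (0.81) and CHGB with CHGA (0.77) are the highest, and all pairs with NPY lie between -0.31 and 0.13.

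The named genes most like CHGA by the same measure were TPD52 (r = 0.75), the somatostatin receptor SSTR5 (0.74), ZNF423 (0.72), and CDK5R1, GATA3, CPLX2 and TMEM132A (0.71 each), followed by TCEAL2 (0.69), ZNF365 and KCNQ5 (0.68 each). GATA3 is a transcription factor of the sympathoadrenal lineage, and CPLX2 (complexin) acts in exocytosis. For CHGB they were SEZ6L2 and PTGER3 (0.90 each) and CDK5R1 (0.89), and for SCG5 CKMT1A (0.88), SPOCK3 (0.87) and the granin SCG3 (0.86). SCG2 was most like IFT80 (0.70), SCG3 and ALCAM (0.68 each). For GAL they were EEF1A2 (0.78), BMP7 (0.77) and PTGER3 (0.76), for PENK HTATSF1 (0.68), KCNE3 (0.67) and SIRT3 (0.65), and for PCSK1 EFNA4 (0.72), UNC50 and C1H15orf61 (0.68 each).

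Other genes of the granule pathway were counted from lists. Of 6 other granins and granule cargo genes with a probe, 2 were higher in LW than in CR pigs: SCG3, which sorts chromogranin A to the granule, by 0.87 ± 0.13 (SE; limma, adjusted p = 1.61e-05) and QPCT, which forms the pyroglutamate end of some peptides, by 0.70 ± 0.23 (0.0444). The convertase inhibitor PCSK1N gave 0.29 (0.108), and CPE, the carboxypeptidase that trims peptides after the convertases, gave 0.02 (0.94). The median of these 6 genes was 0.25. No gene was called by limma among 7 other processing proteases, with differences from -0.18 to 0.11, or among 6 receptors of the member peptides, with differences from -0.09 to 0.64. Of 16 genes of the granule membrane and exocytosis, 3 were higher in LW pigs (CPLX2 0.75, RAB27A 0.68, RIMS1 0.56) and SV2C was lower (-1.18). Of 16 other neuropeptides and peptide hormones, 2 were higher (CALCB 0.60, ADM 0.36) and 3 lower in LW pigs (CCK -2.35, SST -1.23, TAC3 -0.47). Of 11 genes of chromaffin transcription factors and innervation, HAND1 (0.68), GATA3 (0.59) and the nicotinic receptor subunit CHRNA3 (0.32) were higher and RET (-0.80) was lower. Of 7 catecholamine genes, PNMT (0.38) and CYB561 (0.17) were higher and MAOA (-0.38) was lower, while DBH gave 0.23 (adjusted p = 0.285) and DDC 0.27 (0.22).

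Calls among markers of other cell types were set beside the 11.5% of all probes called between these breeds. Of 6 adipocyte genes 4 were lower in LW than in CR pigs (ADIPOQ by -1.62, FABP4 -1.33, PLIN1 -0.90 and CIDEC -0.59). The mean log2 level of a shorter list of 3 adipocyte markers (ADIPOQ, PLIN1 and LEP) ran from 8.11 to 9.17 in CR TN, 8.39 to 8.82 in CR HS, 7.62 to 8.21 in LW TN and 7.73 to 7.98 in LW HS pigs. Of 11 cortex genes 3 were lower in LW pigs (HSD3B1 -0.78, STAR -0.34, FDXR -0.19), of 5 endothelial genes KDR was higher (0.68), and of 7 leukocyte genes CSF1R was lower (-0.29). None of 8 Schwann cell genes (-0.54 to 0.29) and none of 4 red blood cell genes (-0.12 to 0.68) was called by limma. The part of these cell types in the breed differences of the members was not tested.

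Each member was set against the mean of DBH, DDC, PNMT and SLC18A1 on the same array, a reference of 4 of the 7 catecholamine genes that was chosen after the data were seen and that may itself differ per cell. This mean was itself 0.31 higher in LW than in CR pigs. Relative to it, SCG2 was 0.72 higher in LW pigs, in 12 of 12 pigs above the CR mean, PCSK1 0.34 and CHGB 0.23 (permutation test with 100000 resamples, adjusted p over the 8 genes of 0.00048, 0.0457 and 0.0292), and NPY was lower by -2.15 (0.0309). PENK gave 0.26 (0.146), SCG5 0.06 (0.426), CHGA -0.14 (0.252) and GAL -0.36 (0.252). The CHGA value is that of its brightest probe. Its 4 probes differed between LW and CR pigs by 0.16 to 0.68, below and above the 0.31 of the reference. The sign for CHGA therefore depends on the probe taken. The values relative to the reference compare the members with 4 other genes and do not separate the number of chromaffin cells from the RNA per cell.

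Across pigs, with group means removed, 48 relations of 8 members with the mean levels of 6 short marker lists (3 genes for adipocytes, 4 for Schwann cells and 2 for red blood cells) were computed, and r passed a permutation test after adjustment in 4. SCG2 had r = -0.56 with the adipocyte list (adjusted permutation p = 0.00936, and r = -0.42 without the 2 most distant pigs). NPY had r = 0.60 with the Schwann cell list (0.00936, and 0.39 without the 2 most distant pigs), CHGB 0.52 with the Schwann cell list (0.0208) and GAL 0.49 with the red blood cell list (0.0299). By rank, SCG2 with adipocytes (rho = -0.57, adjusted permutation p = 0.0149) and GAL with red blood cells (0.51, 0.0346) passed, and NPY and CHGB with Schwann cells did not (0.46 and 0.48, with 0.0588 and 0.0549).

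Between HS and TN pigs 1 gene of all lists was called by limma, the cortex regulator NR5A1 (-0.25, adjusted p = 0.0253). The median difference of the other granins and granule cargo was -0.08, with SCG3 at -0.25 (adjusted p = 0.272), and that of the catecholamine genes was -0.15, with PNMT at -0.35 (0.0789). Between F1 pigs and the mean of the parents, TAC3, the precursor of neurokinin B, was the only gene of the lists called, 0.98 higher in F1 pigs (limma, adjusted p = 9.74e-05).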

How the data were processed

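Adrenal RNA of 36 pigs was measured on 1-colour arrays. The authors extracted the spots with Agilent Feature Extraction 10.10.1.1, quantile normalized the median pixel intensity and took log2, and limma is also named in the submitters' processing notes. The deposited table of log2 values (45348 probes, 93 missing values) was used as it is. The deposited scanner files hold each spot's intensity, not normalized between arrays, and served for alternatives, background flags and PCSK2.

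Linear models with breed and temperature were fitted to all probes of the table in R 4.3.3 with limma 3.58.1, whose moderated tests were used. Correlations and single values used permutation tests in scipy 1.17.1, and the procedure was tested on simulated data. Pen, slaughter day and parents, random effects in the study's model, are not in the labels and were not used. Littermates and pen mates thus counted as independent pigs. Pigs are numbered in the order of the samples, which names them only.

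The members and lists were chosen with earlier results of these data known. Named genes were all members, at most the 4 largest changes per list and comparison past 0.05 (ADM was added after its value was seen), the 10 genes most like CHGA and the 3 most like each other member. NGFR, PCSK1N, CPE, DBH, DDC and genes given with uncalled values were also named after their values were seen. The other probe choices were alternatives, as were normexp (offset 50), the 75th percentile of the processed signal, array weights, the slide as a block, and pigs or slides left out. The catecholamine reference, the marker correlations, the contrasts within a temperature and F1 against a single parent were chosen after seeing the data.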

Additional observations from a re-analysis of the deposited data

Results flagged for a closer look

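In 5 of the 48 combinations of gene and group, 1 pig lay far from the other 5 of its group, and these came from 3 pigs. The distance was a gap that took a larger part of the group's range than Dixon's limit allows. Genes that vary together in a pig are not independent here, and chance alone marks about 1 group in 20 in this way. LW HS pig 5 was the lowest of its group for CHGA (gap 0.693 of the range), CHGB (0.838) and SCG5 (0.792). It was also the lowest for SCG2, PENK, PCSK1, SCG3 and PNMT, for DBH (9.51, against 10.38 for the next) and for DDC (13.97 against 14.88). F1 TN pig 1 was the highest of its group for NPY (0.838 of the range), with 13.94 against 7.42 for the next, and for PRPH (11.85 against 7.96) and NMB (13.13 against 9.60). F1 TN pig 4 was the lowest of its group for GAL (0.764), with 12.45 against 13.73 for the next, and was also the lowest for CHGB, SCG3, DBH and DDC.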

How the results depend on the processing

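The calls of CHGB, SCG2, PENK and PCSK1 between LW and CR pigs held with other normalizations, filters and weights and with any pig or slide left out, and those of CHGA and SCG5 held there except with the pigs or slides left out given with them above. Within HS pigs, SCG2 alone of the brightest probes was called, and within TN pigs all of these but CHGA were. Between LW and CR pigs 30 member probes were called, 28 to 31 with a pig or slide left out, and 8 within HS pigs. The breed F test called 30 (25 to 30 with a pig or slide left out), F1 against CR alone 12 and LW against F1 alone 6. The count for HS against TN was 0, 1 under normexp with an offset of 50, and 0 to 1 with a pig or slide left out (1 without CR TN pig 5). The other counts of 0 stayed at 0, and 5 to 7 relations with CHGA passed. Over all probes, calls for HS against TN numbered 413, but 899 with the slide as a block, 751 with array weights, 34 without slide 3 and 819 without LW HS pig 5. Calls between LW and CR numbered 5207, but 2569 without slide 3. Calls for F1 against the mean of the parents numbered 188, but 316 with the slide as a block and 14 without slide 3. Differences near 0 changed sign. PENK between HS and TN was -0.06 to 0.03 with a pig or slide left out. GAL between LW and CR was 0.05 with the slide as a block and -0.24 to 0.12 with a pig or slide left out. For F1 against the mean of the parents, CHGA was -0.03 with the 75th percentile of the processed signal, -0.01 with array weights and -0.03 to 0.04 with a pig or slide left out, and PCSK1 was 0.01 with the slide as a block and -0.10 to 0.06 with a pig or slide left out. The cause was not tested. No paired analysis was possible because the labels number no pigs across groups. The number of pigs limits the precision within a breed, where 6 stood against 6.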
